A study of Mus musculus with 6 samples.

Results

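The 10 genes Cpeb1, Cpeb2, Cpeb4, Ybx2, Ddx6, Patl2, Lsm14b, Eif4enif1, Eif4e1b and Dazl, which act in maternal mRNA storage and translation control, were followed in germinal vesicle (GV) oocytes with and without a truncating mutation of Bnc1. They were chosen by name for their roles, with earlier results of these data known. All 10 were found by symbol among the 17577 genes listed. The 6 libraries came from ovaries of C57BL/6 J mice that were 12 weeks old, with 3 libraries from Bnc1tr/tr mice and 3 from wild-type (WT) mice. Bnc1tr/tr mice are homozygous for a 5-base deletion that shifts the reading frame of Bnc1, the gene of the transcription factor basonuclin 1, in every cell of the animal, so oocyte and ovary carry the mutation alike. The methods describe females primed with pregnant mare serum gonadotropin and 1 oocyte as the input of each cDNA, which was primed with oligo(dT), and the study calls the replicates biological and its comparisons those of littermates. Which animal or litter gave each library was not given, so the p-values below measure the spread between these libraries.

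A growing oocyte makes far more mRNA than it translates. Much of this RNA is kept with short poly(A) tails in ribonucleoprotein particles, and transcription is silent by the time meiosis resumes, so that maturation depends on turning stored messages on in order. CPEB proteins bind the cytoplasmic polyadenylation element (CPE) of a 3′ UTR and hold the message silent or lengthen its tail, DAZL promotes translation of messages it binds, YBX2 coats and stabilises stored RNA, DDX6, PATL2 and LSM14B are components of repressive particles, and 4E-T (the product of Eif4enif1) and eIF4E1B act at the cap.

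The CPE is the sequence that the CPEB proteins read, and several of the genes followed here carry it themselves. The letters TTTTAT and TTTTAAT were searched on the sense strand of 1 annotated 3′ UTR per gene (GENCODE M21, GRCm38), and neither motif contains the other. At least 1 CPE was found in the 3′ UTR of 8 of the 10 genes (80.0%), compared with 62.3% of 9832 tested genes with a usable 3′ UTR, whose median length was 963 bases against 1246 bases for the 10. The counts were 24 in Cpeb2, 17 in Cpeb4, 7 in Ddx6, 6 in Dazl, 4 in Cpeb1, 2 in Lsm14b and 1 each in Ybx2 and Eif4enif1, while Patl2 and Eif4e1b had 0. A CPE followed within 100 bases by a polyadenylation signal (AATAAA or ATTAAA) was found in Cpeb1, Cpeb2, Cpeb4 and Eif4enif1, 4 of 10 genes compared with 32.2% of the tested genes. In the last 100 bases of the 3′ UTR a CPE was found only in Ybx2, 1 of 10 compared with 20.3%. One 30-base stretch is shown for Cpeb1, Cpeb2, Cpeb4, Ybx2, Ddx6 and Dazl, on which the comparisons below turn, with the CPE in capitals, and for Ccnb1, the message of cyclin B1 and a well-known CPEB1 target. Where a polyadenylation signal followed, the element nearest the 3′ end with that arrangement was taken, and otherwise the element nearest the 3′ end.
Cpeb1 (chr7:81347475-81347504, minus strand): ttgatagaagtTTTTAATcacagtcacagg
Cpeb2 (chr5:43289459-43289488, plus strand): gttaaagccgttTTTTATttttttctaaat
Cpeb4 (chr11:31934896-31934925, plus strand): taattctttgtTTTTAATtgcagacattaa
Ybx2 (chr11:69941532-69941561, plus strand): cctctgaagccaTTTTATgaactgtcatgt
Ddx6 (chr9:44639893-44639922, plus strand): aagccatgttaTTTTAATtggatacttttt
Dazl (chr17:50279752-50279781, minus strand): aagtcaaaattcTTTTATgtcaccaagtca
Ccnb1 (chr13:100778775-100778804, minus strand): ctcatttgctgTTTTAATttatacatctga
A match of letters is a description of the sequence and not a measured binding site.

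Values are FPKM, fragments per kilobase of transcript per M (mega) mapped fragments, as deposited. Estimated depth was 13.3 to 17.2 M fragments in Bnc1tr/tr and 14.8 to 22.4 M in WT libraries. Without greater depth, the Bnc1tr/tr libraries listed more genes above 0 FPKM (15258 to 15736, compared with 13896 to 14576 in WT) and at 1 FPKM or more (10682 to 11035, compared with 9518 to 9748), and the part of this in the higher values of low genes such as Cpeb2 was not tested. The 12 oocyte markers summed to 16152 to 17920 FPKM in Bnc1tr/tr and 14494 to 19241 FPKM in WT libraries, so both groups carried the markers of the labelled cell. H1foo was the highest of them, with means of 7399 and 7401 FPKM. Of the 12, 0 were called higher and 2 lower, Zp2 (313 to 424 and 491 to 784 FPKM) and Nlrp5 (183 to 189 and 236 to 318 FPKM). Markers of other ovarian cells were at lower levels, and most of their sums differed between the genotypes. Granulosa and cumulus markers (12 listed) summed to 43.5 to 60.5 FPKM in Bnc1tr/tr and 22.98 to 40.1 FPKM in WT. Of 5 tested, 2 were called higher, Fshr (4.54 to 5.83 and 0 to 0.74 FPKM) and Kitl (1.94 to 3.1 and 1.12 to 1.18 FPKM). Most of the sum was Cyp19a1 (27.5 to 44.4 and 17.4 to 29.0 FPKM), which overlapped and was not called. Nr5a2 (4.10 to 7.09 and 3.49 to 3.85 FPKM) was not called either. Inha had a lower mean in Bnc1tr/tr (0.09 to 1.81 and 0.04 to 6.78 FPKM) and was not called. The defining markers Amhr2 and Foxl2 were at or near 0 in both genotypes. They were at 0 in every Bnc1tr/tr library and at most 0.21 and 0.03 FPKM in WT. Theca and luteal markers (5 listed) summed to 5.95 to 7.62 FPKM in Bnc1tr/tr and 0.71 to 4.17 FPKM in WT, with Cyp11a1, the only one tested, called higher. Lhcgr was at 0 in every Bnc1tr/tr library and at 0.14, 0.03 and 0 FPKM in WT. Stroma markers (4 listed) summed to 5.72 to 9.69 and 1.40 to 2.09 FPKM, with Dcn, the only one tested, called higher. Col1a1 and Lum were at 0 in every WT library. In Bnc1tr/tr, Col1a1 was at 0.01 FPKM or less and Lum at 0.41 to 2.23 FPKM. Surface epithelium markers (5 listed) summed to 9.41 to 32.9 and 0.92 to 1.71 FPKM, with all 3 tested called higher and Krt18 at 0 in every WT library. These 3, Krt8, Krt18 and Upk3b, had WT means of 0.47, 0 and 0.553 FPKM. Like Fshr (WT mean 0.35 FPKM), they passed the filter of a mean of at least 1 FPKM only through their Bnc1tr/tr values. The sum of the endothelial markers (4 listed) was lower, at 5.38 to 8.10 and 10.1 to 11.7 FPKM, mostly from Pecam1 (3.16 to 5.13 and 7.55 to 9.92 FPKM, called lower), while Kdr was at 0.53 to 1.54 and 0.07 to 0.12 FPKM. Immune markers (9 listed) had overlapping sums of 60.5 to 135 and 66.2 to 97.3 FPKM, mostly from C1qb (53.1 to 70.7 and 64.8 to 95.3 FPKM). Of the other immune markers, Ptprc, Adgre1, Lyz2, C1qa, Cd52 and Tyrobp were at 0 in every WT library, while Lyz2 was at 5.81, 47.97 and 0 FPKM, Tyrobp at 8.42, 9.80 and 0 FPKM and C1qa at 1.39, 1.66 and 0.61 FPKM in Bnc1tr/tr replicates 1 to 3, and 0 of the 5 tested immune markers were called. The part of these transcripts in the differences below was not tested. FPKM is a share of each library, and RNA per oocyte was not measured.

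Bnc1 (NCBI Gene ID 12173, chr7:81966657-81992299) was examined first. It stood at 9.04, 6.51 and 5.83 FPKM in Bnc1tr/tr replicates 1 to 3 and at 13.17, 12.54 and 16.23 FPKM in the WT replicates. All Bnc1tr/tr values were below all WT values, with a log2 fold change of -0.89 (SE 0.20, limma adjusted p = 0.0090). The small deletion leaves nearly all of the transcript in place, so the value shows less Bnc1 RNA and does not read out the allele.

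Across the genes followed, Cpeb4, Ddx6 and Dazl were higher in Bnc1tr/tr oocytes, and no tested gene was called lower. Cpeb2, nearly undetected in WT oocytes, was also higher. Cpeb1, Lsm14b and Eif4enif1 had almost equal means in the genotypes, and Ybx2 and Patl2 had lower means in Bnc1tr/tr oocytes that did not pass the test. A gene was called changed by limma on log2(FPKM + 1) where the p adjusted by Benjamini and Hochberg was below 0.05 and the log2 fold change exceeded 0.5 in either direction. The added 1 makes fold changes of low genes smaller than the ratio of their means. In all, 9 of the genes passed the filter of a mean of at least 1 FPKM, and Cpeb2, with a mean of 0.925 FPKM, did not. Of the 9 tested genes, 3 were called higher, 0 lower and 6 were not called. Among all 10560 genes tested, 31.8% were called changed, 24.1% higher and 7.68% lower, so 3 of 9 is near the background. The groups did not overlap for 4 of the 9 genes, compared with 46.8% of all tested genes. The median log2 fold change was 0.05 for the 9 genes and 0.15 for all tested genes. The all-gene median moved to -0.02 with median-ratio scaling and to -0.09 with either upper-quartile scaling or quantile normalization. The share of changed genes that were higher was 75.8% as deposited, 59.3% with median-ratio scaling, 50.8% with upper-quartile scaling and 48.0% with quantile normalization.

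**Figure D1:**
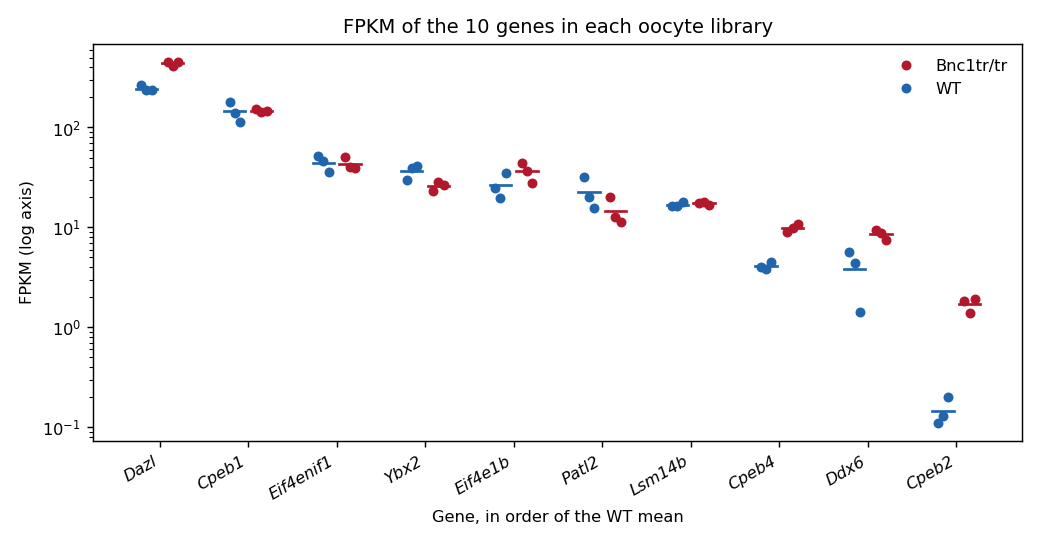
FPKM of the 10 genes in each library (log axis), in the order of the WT mean, with 3 points per genotype for replicates 1 to 3 from left to right and a line at the mean. The red Bnc1tr/tr points lie above the blue WT points for Dazl, Cpeb4, Ddx6 and Cpeb2, and below them for Ybx2, and overlap them for the other 5 genes.

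The levels covered a wide range and kept much of their order in both genotypes. In WT oocytes Dazl was highest with a mean of 245 FPKM, ranking 494 to 597 among 17577 genes, followed by Cpeb1 at 145 FPKM. Eif4enif1, Ybx2, Eif4e1b, Patl2 and Lsm14b formed a middle group between 44.4 and 16.9 FPKM, in which each gene's range overlapped the next. Cpeb4 at 4.14 and Ddx6 at 3.82 FPKM overlapped each other, and Cpeb2 was last at 0.147 FPKM. In Bnc1tr/tr oocytes the order was Dazl, Cpeb1, Eif4enif1, Eif4e1b, Ybx2, Lsm14b, Patl2, Cpeb4, Ddx6 and Cpeb2. Here the range of Eif4e1b overlapped those of Eif4enif1 and Ybx2, which lay apart from each other, and the ranges of Lsm14b and Patl2, and of Cpeb4 and Ddx6, overlapped. Dazl made up 57.9% to 60.9% of the summed FPKM of the 10 genes in Bnc1tr/tr and 43.2% to 47.2% in WT libraries. The sum itself was 714 to 781 FPKM in Bnc1tr/tr and 502 to 609 FPKM in WT libraries, a share of 0.101% to 0.119% and 0.0693% to 0.0907% of all FPKM.

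Among the CPEB genes, Cpeb1 was by far the most abundant and Cpeb4 and Cpeb2 were the ones that rose. Cpeb1 (NCBI Gene ID 12877, chr7:81347026-81458001) encodes the founding CPEB protein, which represses and then activates CPE-bearing messages during meiosis. It was at 153.18, 141.37 and 144.69 FPKM in the Bnc1tr/tr replicates and 180.61, 139.70 and 113.79 FPKM in the WT replicates. The WT values surrounded the Bnc1tr/tr values, with means of 146 ± 6.09 and 145 ± 33.7 FPKM (SD, n = 3 each). The log2 fold change was 0.04 with a 95% interval from -0.41 to 0.49 (limma adjusted p = 0.90), and its sign turned with upper-quartile scaling (-0.23), with median-ratio scaling (-0.14) and without WT replicate 3 (-0.12).

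Cpeb4 (NCBI Gene ID 67579, chr11:31870104-31935635) encodes a CPEB paralogue that takes over polyadenylation late in meiosis in frog oocytes. It was at 8.90, 9.94 and 10.72 FPKM in Bnc1tr/tr and 4.05, 3.85 and 4.53 FPKM in WT oocytes. Every Bnc1tr/tr library was above every WT library, and the means of 9.85 ± 0.913 and 4.14 ± 0.349 FPKM (SD, n = 3 each) stood in a ratio of 2.38. The log2 fold change was 1.08 (SE 0.16, limma adjusted p = 0.0011), and Cpeb4 was called higher in all 14 alternative fits at these thresholds.

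Cpeb2 (NCBI Gene ID 231207, chr5:43225349-43289724), a closer relative of Cpeb4 than of Cpeb1, was at 1.83, 1.38 and 1.90 FPKM in Bnc1tr/tr and 0.11, 0.13 and 0.20 FPKM in WT oocytes. The groups did not overlap, and the means were 1.70 ± 0.282 and 0.147 ± 0.0473 FPKM (SD, n = 3 each). With its transcript of 7050 bases, the WT values correspond to an estimated 11 to 31 fragments and the Bnc1tr/tr values to 160 to 223. Cpeb2 could be tested only without the filter on low values, where 19.4% of 17574 genes were called changed. There its log2 fold change was 1.23 (SE 0.10, limma adjusted p = 0.0013), an understatement at this level because 1 is added before the logarithm. Of its exon bases 1.75% overlap Gm7854 on the opposite strand, and whether strand was used in counting was not given in the sources used here. Cpeb1 thus made up 92.0% to 93.5% of the summed FPKM of these 3 CPEB genes in Bnc1tr/tr and 96.0% to 97.7% in WT libraries. Cpeb3, the remaining paralogue, was at 2.64 ± 0.123 and 2.55 ± 0.295 FPKM (SD, n = 3 each) and was not called (log2 fold change 0.04, limma adjusted p = 0.88).

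Dazl (NCBI Gene ID 13164, chr17:50279393-50293620) encodes an RNA-binding protein of germ cells that promotes translation during meiotic maturation and works together with CPEB1 on shared messages. It was at 451.88, 416.20 and 447.34 FPKM in Bnc1tr/tr and 263.50, 234.65 and 237.00 FPKM in WT oocytes. The groups were well apart, with a ratio of 1.79 between means of 438 ± 19.4 and 245 ± 16.0 FPKM (SD, n = 3 each). The log2 fold change was 0.84 (SE 0.15, limma adjusted p = 0.0035) and lay between 0.56 and 0.89 in 14 alternative fits, in all of which Dazl was called higher at the threshold of 0.5. It would not be called at a threshold of 1. Against the all-gene median, the differences of Dazl and Cpeb4 were 0.69 and 0.93 on the log2 scale.

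**Figure D2:**
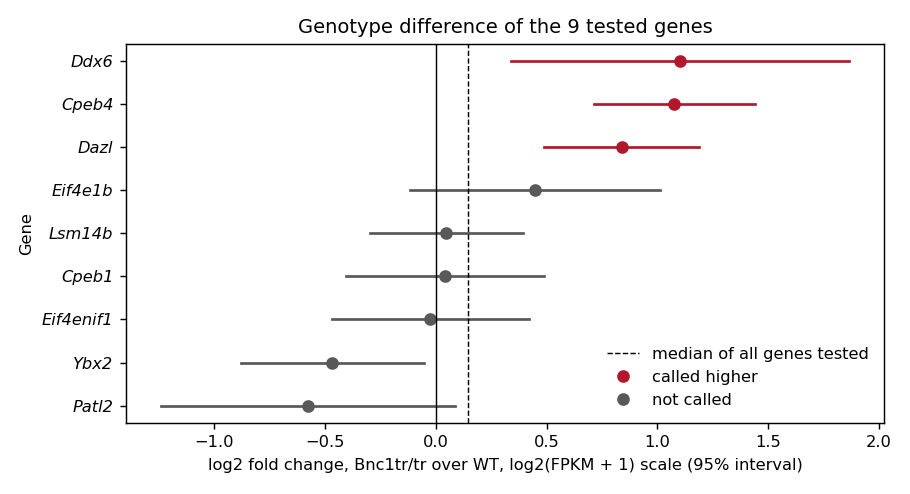
Log2 fold change of Bnc1tr/tr over WT for the 9 tested genes on the log2(FPKM + 1) scale, with 95% intervals from limma, a solid line at 0 and a dashed line at the median of all tested genes (0.15). Ddx6, Cpeb4 and Dazl lie to the right, and Ddx6 has the widest interval, from 0.34 to 1.87.

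The genes of the repressive particle did not move together. Ddx6 (NCBI Gene ID 13209, chr9:44602983-44640731) encodes the RNA helicase at the core of P-bodies and of stored particles. It was at 9.33, 8.79 and 7.48 FPKM in Bnc1tr/tr and 5.63, 4.41 and 1.42 FPKM in WT oocytes. The groups did not overlap and WT replicate 3 was far below the other two, with means of 8.53 ± 0.951 and 3.82 ± 2.17 FPKM (SD, n = 3 each). The log2 fold change was 1.10 (SE 0.34, limma adjusted p = 0.035), and without WT replicate 3 it was 0.67 (limma adjusted p = 0.024). The call was lost in 7 of 14 alternatives, among them the removal of any 1 Bnc1tr/tr replicate (limma adjusted p = 0.066 to 0.10) and upper-quartile scaling (limma adjusted p = 0.054). Of its 31-base words 7.32% are shared with Gm13410 or Zfp609, so a small part of its reads could be split.

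Ybx2 (NCBI Gene ID 53422, chr11:69935805-69941604) encodes MSY2, an abundant protein of oocytes that binds and protects stored mRNA. It was at 23.34, 28.65 and 26.43 FPKM in Bnc1tr/tr and 29.98, 39.45 and 40.70 FPKM in WT oocytes. All Bnc1tr/tr values were below all WT values, with means of 26.1 ± 2.67 and 36.7 ± 5.86 FPKM (SD, n = 3 each). The log2 fold change of -0.47 (SE 0.18, limma adjusted p = 0.083) did not pass the thresholds as deposited. It did with upper-quartile scaling (-0.73, limma adjusted p = 0.023), with median-ratio scaling (-0.65, limma adjusted p = 0.037), with quantile normalization (-0.63, limma adjusted p = 0.039) and without WT replicate 1 (-0.60, limma adjusted p = 0.047).

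Patl2 (NCBI Gene ID 67578, chr2:122120108-122186189) encodes the oocyte form of the PAT1 repressor. It was at 20.00, 12.78 and 11.22 FPKM in Bnc1tr/tr and 32.26, 20.32 and 15.57 FPKM in WT oocytes. Bnc1tr/tr replicate 1 reached into the WT range, and the log2 fold change of -0.58 (SE 0.29, limma adjusted p = 0.17) was not called, with a 95% interval from -1.24 to 0.09. Patl2 was called lower with upper-quartile scaling (-0.84, limma adjusted p = 0.032), with quantile normalization (-0.80, limma adjusted p = 0.039) and in the fit with replicate block (limma adjusted p = 0.028). Lsm14b (NCBI Gene ID 241846, chr2:180024900-180035466), whose protein belongs to the same family as LSM14A and is needed for stored particles of the oocyte, was the steadiest. It was at 17.69, 17.95 and 16.82 FPKM in Bnc1tr/tr and 16.22, 16.34 and 18.13 FPKM in WT oocytes. The ranges overlapped, and the log2 fold change was 0.05 with a 95% interval from -0.30 to 0.39 (limma adjusted p = 0.84). Its sign turned with the 3 scalings, to between -0.21 and -0.13.

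At the cap, neither gene changed by the test. Eif4enif1 (NCBI Gene ID 74203, chr11:3202343-3244588) encodes 4E-T, which binds eIF4E proteins and represses translation. It was at 50.17, 40.14 and 39.74 FPKM in Bnc1tr/tr and 52.01, 45.71 and 35.44 FPKM in WT oocytes. The groups overlapped throughout, with a log2 fold change of -0.02 and a 95% interval from -0.47 to 0.42 (limma adjusted p = 0.94), and its sign turned when any of 4 libraries was left out. Eif4e1b (NCBI Gene ID 218268, chr13:54783994-54788459) encodes a cap-binding protein of the oocyte that binds 4E-T. It was at 44.28, 36.89 and 28.09 FPKM in Bnc1tr/tr and 24.98, 19.88 and 35.43 FPKM in WT oocytes. Both groups were spread widely and overlapped, with a log2 fold change of 0.45 and a 95% interval from -0.12 to 1.01 (limma adjusted p = 0.20). Of its 31-base words 13.9% occur in transcripts of 13 other genes, so its level is less certain than that of the other genes.

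Libraries of a genotype also differed in several of these genes at once. Cpeb1, Patl2, Eif4enif1 and Ddx6 were all highest in WT replicate 1 and lowest in WT replicate 3. Ybx2, Cpeb4, Dazl, Lsm14b, Eif4e1b and Cpeb2 were not. The oocyte markers Zp1, Zp2, Zp3, Bmp15, Ddx4, Nobox and Ooep had the same order in WT. The oocyte markers Gdf9, Figla, Oosp1, Nlrp5 and H1foo did not. Patl2, Ddx6, Eif4enif1 and Eif4e1b were all highest in Bnc1tr/tr replicate 1 and lowest in Bnc1tr/tr replicate 3.

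Ratios between related genes within a library do not depend on the scaling of that library, apart from the 1 FPKM added before the logarithm. Ybx1 encodes the Y-box protein of most tissues. The log2 ratio of Ybx2 over Ybx1 averaged -2.22 ± 0.30 in the Bnc1tr/tr and -0.99 ± 0.211 in the WT libraries (SD, n = 3 each), a difference of -1.23 with no overlap. Ybx1 itself was at 125.51, 107.77 and 144.89 FPKM in Bnc1tr/tr and 71.96, 73.90 and 74.43 FPKM in WT oocytes and was called higher (log2 fold change 0.76, limma adjusted p = 0.0090), a call lost with upper-quartile scaling (limma adjusted p = 0.064). The log2 ratio of Patl2 over Patl1 was 1.54 ± 0.170 and 2.57 ± 0.449 (SD, n = 3 each), a difference of -1.03 without overlap, although neither Patl2 nor Patl1 (log2 fold change 0.45, limma adjusted p = 0.21) was called alone. Cpeb4 over Cpeb1 and Cpeb2 over Cpeb1 differed by 1.03 and 1.19 on the log2 scale, again without overlap. The difference of Cpeb2 over Cpeb1 rests on the added value, and was 2.83 with 0.1 FPKM added. Each of these 4 pairs had a p of 0.10 by an exact permutation test (two-sided), which is as low as groups of 3 can give, and of 0.15 after adjustment over the 6 pairs, so this test cannot reach 0.05 here. Lsm14b over Lsm14a differed by 0.15 (exact permutation p = 0.50) and Eif4e1b over Eif4e by 0.49 (exact permutation p = 0.20), with overlap in both. The denominators Lsm14a (log2 fold change -0.11, limma adjusted p = 0.74) and Eif4e (log2 fold change -0.04, limma adjusted p = 0.86) were not called.

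**Figure D3:**
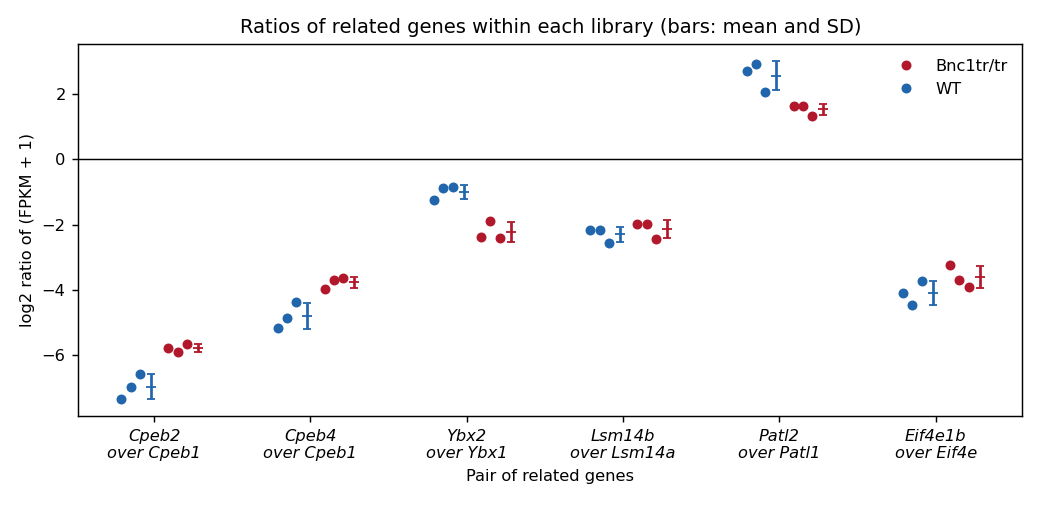
Log2 ratio of (FPKM + 1) for 6 pairs of related genes in each library, with the mean and SD of 3 libraries beside the points, WT in blue and Bnc1tr/tr in red. The genotypes are apart for Cpeb2 over Cpeb1, Cpeb4 over Cpeb1, Ybx2 over Ybx1 and Patl2 over Patl1, and overlap for Lsm14b over Lsm14a and Eif4e1b over Eif4e.

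The wider machinery was described with 5 lists written from general knowledge, but with earlier results of these data known. Of 98 tested genes on them, 16 were called higher and 6 lower, together 22 against a background of 31.8% called (24.1% higher, 7.68% lower). The groups did not overlap for 47, near the background of 46.8%, and the median log2 fold change was 0.11 compared with 0.15 for all tested genes. With upper-quartile scaling 7 were higher and 17 lower, and with median-ratio scaling 8 were higher and 10 lower, so the split between higher and lower calls depended on the scaling. Of 21 genes named below by the size of their change, 10 kept their call, at the thresholds used here, in every alternative fit that tested them. Under at least 1 of the 3 scalings, 9 lost it.

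Among partners and paralogues of the storage particle, 2 of 27 tested genes were higher, 3 were lower and 22 were not called, beside 24.1% higher and 7.68% lower over all tested genes. Igf2bp1, named after its values were seen, was not tested because of its low mean, like Cpeb2. It was at 1.62, 1.08 and 0.74 FPKM in Bnc1tr/tr and 0.13, 0.03 and 0.03 FPKM in WT, and without the filter its log2 fold change was 0.99 (limma adjusted p = 0.010). The decapping enzyme gene Dcp2 was higher (12.58, 12.47 and 14.62 FPKM in Bnc1tr/tr and 8.14, 7.11 and 5.91 FPKM in WT, log2 fold change 0.83, limma adjusted p = 0.0068), as was Ybx1. Zar1l, which encodes an RNA-binding protein of the oocyte ribonucleoprotein, was lower, at 440.42, 464.34 and 405.82 FPKM in Bnc1tr/tr and 653.60, 837.82 and 811.69 FPKM in WT (log2 fold change -0.81, limma adjusted p = 0.0070). Its relative Zar1 was at 491 ± 55.6 and 597 ± 126 FPKM (SD, n = 3 each) and was not called (limma adjusted p = 0.36). Igf2bp3, an mRNA-binding protein gene, was lower (6.40 ± 2.05 and 14.2 ± 0.357 FPKM, SD, n = 3 each, log2 fold change -1.07, limma adjusted p = 0.0046). Ybx3, the third Y-box gene, was also called lower (46.1 ± 5.75 and 76.7 ± 19.6 FPKM, SD, n = 3 each, log2 fold change -0.70, limma adjusted p = 0.033), a call lost in 6 of 14 alternatives. The Y-box genes thus included 1 called higher, 1 called lower and Ybx2, which was not called.

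Of 24 tested genes of the polyadenylation machinery, 3 were higher, 1 was lower and 20 were not called, compared with 24.1% higher and 7.68% lower over all tested genes. The split turned with the scaling, to 0 higher and 5 lower with upper-quartile and 0 higher and 3 lower with median-ratio scaling. The change of Pabpn1l, a poly(A)-binding protein gene of oocytes, was the largest on this list, with 12.65, 10.81 and 3.64 FPKM in Bnc1tr/tr and 54.00, 44.66 and 38.61 FPKM in WT. The groups were far apart, and the log2 fold change was -2.35 (SE 0.37, limma adjusted p = 0.0015). Its protein is known as an adapter for clearance of maternal mRNA rather than for tail lengthening. Tent4a, a terminal nucleotidyltransferase gene, was higher (log2 fold change 0.72, limma adjusted p = 0.015), as were Sympk, the scaffold of the polyadenylation complex (0.63, limma adjusted p = 0.041), and Cstf3, a cleavage factor gene that acts in the nucleus (0.53, limma adjusted p = 0.028). All 3 lost their call under 2 or more scalings. Tent2, which encodes the cytoplasmic poly(A) polymerase GLD2, was at 31.9 ± 1.23 and 29.4 ± 4.06 FPKM (SD, n = 3 each) and was not called (log2 fold change 0.12, limma adjusted p = 0.63).

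Of 15 tested genes of cap binding and initiation, 2 were higher, 1 was lower and 12 were not called, compared with 24.1% and 7.68% over all tested genes. Eif4ebp1 encodes 4E-BP1, which holds eIF4E away from the initiation complex until it is phosphorylated. It rose from 6.62, 3.46 and 4.29 FPKM in WT to 36.36, 20.81 and 21.24 FPKM in Bnc1tr/tr oocytes, with a log2 fold change of 2.22 (SE 0.27, limma adjusted p = 0.00037). Angel2, whose product is an RNA phosphatase related to deadenylases and not a cap-binding protein, was higher (log2 fold change 0.55, limma adjusted p = 0.026), and Eif4e3, an atypical cap-binding protein gene, was lower (log2 fold change -0.51, limma adjusted p = 0.039). Both calls were lost in 6 and 8 of 14 alternatives.

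The sequence-specific regulators held the largest increase of the 5 lists. Of 13 tested genes 4 were higher, 1 was lower and 8 were not called, with a median log2 fold change of 0.36. Over all tested genes 24.1% were higher and 7.68% lower, and 5 of 13 called stands beside 31.8%. Msi2, which encodes the RNA-binding protein Musashi 2, was at 17.03, 14.57 and 13.35 FPKM in Bnc1tr/tr and 2.12, 1.69 and 1.29 FPKM in WT (log2 fold change 2.57, limma adjusted p = 1.8e-05). Zfp36l2, an AU-rich element binding protein gene needed for mRNA decay in oocytes, was at 3.21, 2.92 and 2.47 FPKM in Bnc1tr/tr and 0.36, 0.33 and 0.35 FPKM in WT (log2 fold change 1.52, limma adjusted p = 0.00015). In both, no library of one genotype reached the range of the other. Zfp36l2, with a WT mean of 0.347 FPKM, passed the filter on the mean only through its Bnc1tr/tr values. Lin28a, a regulator of let-7 and of translation, was higher (4.87 ± 0.414 and 1.26 ± 0.400 FPKM, SD, n = 3 each, log2 fold change 1.39, limma adjusted p = 0.00058), and Trim71, a repressor of translation that is itself a let-7 target, was lower (10.6 ± 1.42 and 28.2 ± 5.50 FPKM, SD, n = 3 each, log2 fold change -1.32, limma adjusted p = 0.0012). These 4 kept their calls in every alternative fit that tested them, at the thresholds used here. Zfp36l2 and Lin28a, with means of 1.61 and 3.07 FPKM, were not tested at a minimum mean of 5 FPKM. Nanos1, a partner of Pumilio proteins, was called higher (log2 fold change 0.58, limma adjusted p = 0.035) and lost the call under all 3 scalings.

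Messages known to be translated upon meiotic maturation had 5 of 19 tested genes higher, 0 lower and 14 not called, with a median log2 fold change of 0.24. This is near the 24.1% higher over all tested genes. There were 2 higher and 3 lower with upper-quartile scaling, 2 higher and 1 lower with median-ratio scaling, and 1 higher without WT replicate 2. Here the values are levels of RNA captured by oligo(dT) priming and not translation. Poly(A) tail length was not measured, and its part in these values was not tested. Tex19.1, a mammal-specific germ cell gene, was at 200.11, 85.78 and 85.57 FPKM in Bnc1tr/tr and 36.07, 36.24 and 13.31 FPKM in WT (log2 fold change 2.09, limma adjusted p = 0.0067). Mos, the kinase that activates MAPK in meiosis, had 0 CPEs by the search above, which covered an annotated 3′ UTR of only 126 bases. Mos was at 930.00, 670.74 and 609.17 FPKM in Bnc1tr/tr and 495.84, 386.91 and 301.03 FPKM in WT (log2 fold change 0.90, limma adjusted p = 0.019). In both, replicates of a genotype differed widely but did not reach the other group, and the call of Mos was lost without Bnc1tr/tr replicate 1 or without WT replicate 2. Fbxo43, an inhibitor of the anaphase-promoting complex (log2 fold change 0.67, limma adjusted p = 0.031), and Il7, a cytokine gene (0.66, limma adjusted p = 0.013), were higher, as was Bub1b, a checkpoint kinase gene that was named after its values were seen (0.61, limma adjusted p = 0.024). Ccnb1 was at 1364.53, 1312.14 and 1493.02 FPKM in Bnc1tr/tr and 1397.79, 1213.47 and 959.47 FPKM in WT and was not called (log2 fold change 0.24, limma adjusted p = 0.36). A CPE followed by a polyadenylation signal was found in 12 of 18 of these genes with a usable 3′ UTR (66.7%), compared with 32.2% of all tested genes, and the list was chosen for messages of this kind.

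**Figure D4:**
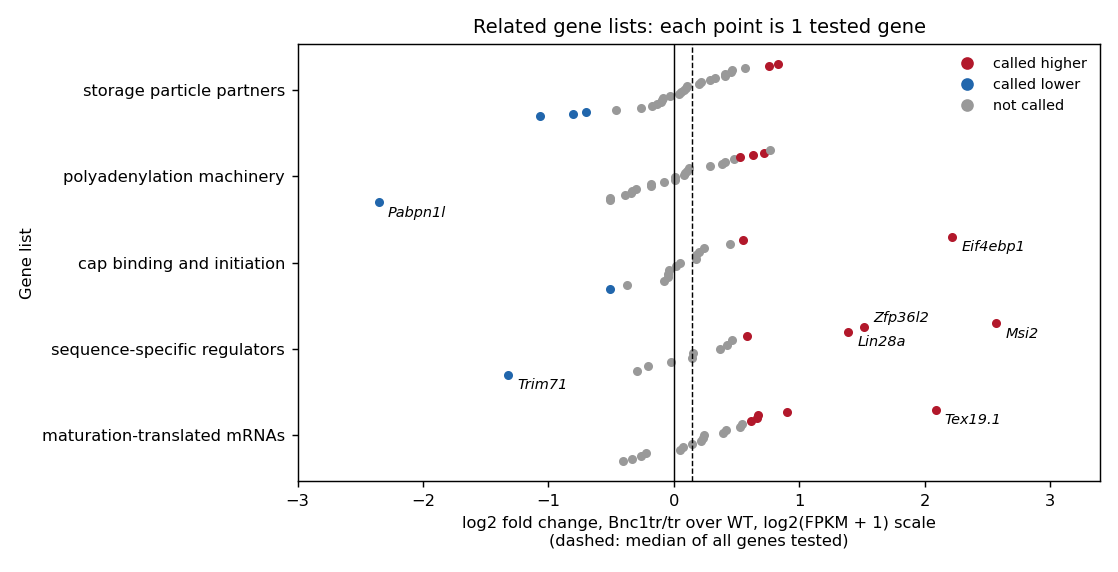
Log2 fold change of Bnc1tr/tr over WT on the log2(FPKM + 1) scale for each tested gene of 5 related lists, coloured by call, with a solid line at 0 and a dashed line at the median of all tested genes (0.15). Most genes lie near the dashed line, and Msi2, Eif4ebp1, Tex19.1 and Pabpn1l lie more than 2 units from 0.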

How the data were processed

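Modified Smart-seq2 cDNA of GV oocytes (3 Bnc1tr/tr, 3 WT) was made into libraries with a transposase kit and sequenced. The authors deposited FPKM per gene, 1 table per library. The submitters' processing notes name HISAT2 2.0.4, Bowtie2 2.2.5, RSEM 1.2.12 and GRCm38.p6. Annotation and gene filters were not given in the sources used here. Groups come from the genotype label and replicate numbers from the titles.

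The 10560 genes whose mean over the 6 libraries reached 1 FPKM were tested on log2(FPKM + 1) by limma 3.58.1 (R 4.3.3). Calls needed an adjusted p below 0.05 and a log2 fold change beyond 0.5 in either direction. Ratios used an exact permutation test (SciPy 1.17.1). The members and gene lists were chosen with earlier results of these data known. Named list genes were the 4 largest increases and decreases among called genes of each list, besides all 10 members, Bnc1 and the paralogues. Same-numbered libraries deviated together at r = 0.28, -0.03 and 0.12, and differently numbered ones at -0.25 to 0.16. With 3 libraries a group, these values cannot show whether the numbers mark pairs. The main fit used genotype only, and a fit with replicate block is given below.

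Low FPKM values fall on steps worth 1 fragment, which gave an estimate of depth. It was least certain in WT replicate 3, whose periodicity was 4.51 and, with lengths shuffled, up to 2.41. For a 1 kb transcript 3 fragments are worth 0.134 to 0.226 FPKM, which covers counting error only, since PCR copies carried no molecular identifiers. Alternatives were a pseudocount of 0.1, no filter, a minimum mean of 5 FPKM, 3 scalings (the 75th percentile over genes above 0 in at least 1 library, median ratio, quantile), the replicate block, trended robust variances, other fold-change thresholds and leaving out each replicate. Coordinates are from RefSeq (GRCm38.p6) and CPE stretches from GENCODE M21. Scripts were tested on simulated data.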

Additional observations from a re-analysis of the deposited data

How the results depend on the processing

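Cpeb4 and Dazl kept their calls in all 14 alternative fits at a log2 fold change over 0.5, and 2 members, Cpeb4 and Ddx6, were called over 1. Members called ranged from 2 to 5 with 1 replicate left out (5 without WT replicate 1), where Cpeb2 entered only when a WT library was left out and its mean so passed the filter, of which 0 to 1 were lower. Lower members numbered 2, 1 and 2 under upper-quartile, median-ratio and quantile scaling.

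All changed genes numbered 3358. A minimum mean of 5 FPKM gave 2046 (1413 higher), and a log2 fold change over 1 gave 1677 (1418 higher, 259 lower). Quantile normalization gave 1666 higher genes. Lower genes numbered 811, and 1794, 1395 and 1804 under upper-quartile, median-ratio and quantile scaling, with 416 (without WT replicate 2) to 1037 (without WT replicate 3) when 1 replicate was left out.

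Changed list genes numbered 22, and 8 (5 higher, 3 lower) at a log2 fold change over 1. Leaving out 1 replicate gave 11 to 19 of them, with 7 to 14 higher, the fewest without WT replicate 2 and 13 without Bnc1tr/tr replicate 1 or 3. Higher list genes numbered 7 and 8 under upper-quartile and median-ratio scaling, and lower ones 17, 10 and 11 with quantile normalization last.

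Signs of differences near 0 turned: Cpeb1 (-0.23 upper-quartile, -0.14 median-ratio, -0.12 to 0.21 with 1 replicate left out), Lsm14b (-0.21, -0.13 and -0.20 under the 3 scalings), Eif4enif1 (-0.17 to 0.096, among them 0.026, 0.033 and 0.0049), Lsm14a (-0.24 to 0.076) and the ratio of Lsm14b over Lsm14a (-0.040, quantile). The cause was not tested.

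With the replicate block 3733 genes were changed (2781 higher, 952 lower), and 1 member, Patl2, was lower. Same-numbered libraries correlated at 0.28, -0.03 and 0.12, differently numbered ones at -0.25 to 0.16, and 3 of 6 libraries correlated best with their own number. At these depths low genes such as Cpeb2 in WT rest on few fragments, and 3 libraries a group limit the precision of every value.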

Other observations

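The 3′ UTR letters were also set beside the genotype difference over all tested genes, a comparison chosen after the data had been seen and given as a description without a test. The 1991 genes with a CPE in the last 100 bases of the annotated 3′ UTR had a median log2 fold change of 0.24, with 27.9% called higher and 5.27% called lower in Bnc1tr/tr oocytes. The 7841 genes without one had a median of 0.13, with 23.3% higher and 7.81% lower. The first group had a median level of 11.2 FPKM and a median 3′ UTR of 1044 bases, and the second 9.73 FPKM and 942 bases. The genes share the 6 libraries, and level and 3′ UTR length moved with the presence of a CPE. Their part in the difference was not tested. Nor was that of poly(A) tail length, which was not measured, in cDNA primed with oligo(dT).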
